A study of Homo sapiens with 11 samples.

Results

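PI3 encodes elafin, a small secreted inhibitor of neutrophil elastase, and is not a kinase gene despite its symbol. It was followed here with 7 other secreted proteins of the innate defence of epithelia, SLPI, LCN2, SAA1, SAA2, CFB, C3 and PTX3. These 8 genes were taken by symbol from the 28152 symbols of the deposited count table. The set was selected on PI3's difference between the treatment groups, with earlier results of this contrast known, so the differences of the 8 genes between the groups are given as descriptions and not as tests.

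RNA sequencing was done on 11 xenograft tumours labelled as BT-474, a cell line of human breast cancer labelled HR+/Her2+. All tumours grew in the mammary fat pad of female athymic nude mice, which lack T cells, and all mice carried an estradiol pellet of 0.72 mg made to release over 90 days. Tumours entered the study above 95 cubic millimetres. The 6 vehicle tumours (replicates 001, 003, 004, 005, 006 and 007) came from mice given mannitol in water under the skin every 4 days. The 5 evexomostat tumours (replicates 002, 003, 004, 005 and 007) came from mice given evexomostat (SDX-7320), an inhibitor of the enzyme methionine aminopeptidase 2, by the same route and interval at 12 mpk. The label gives day 33 for every tumour. The comparison asks how these defence genes differ between tumours of treated and vehicle mice. Nothing in the labels ties each tumour to an animal beyond its own sample entry, so a test measures the spread between these samples.

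Epithelia answer bacteria and injury by secreting several kinds of protein. Antiproteases such as elafin and SLPI protect tissue from neutrophil proteases, lipocalin 2 withholds iron from bacteria by binding their siderophores, and serum amyloid A and the pentraxin PTX3 are made in the acute phase response. Complement C3 coats microbes after cleavage, and factor B supplies the protease of the alternative pathway that cleaves it. Interleukin 1, tumour necrosis factor and interleukin 17, acting through NF-kB, its partner NFKBIZ and C/EBP factors, are known inducers of many of these genes.

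Levels are given as CPM, the usual per-library scaling of counts, with TMM-normalised library sizes. Library totals ranged from 22808033 to 39249329 counts, at which 3 counts, the limit that a count of 0 allows by counting error only, correspond to 0.0764 to 0.132 CPM. Vehicle 001 stood apart. Its top 100 genes held 23.9% of all counts, where the other 10 tumours had 16.2% to 17.9%. Its levels, set against the mean of all tumours, also sloped with transcript length, at -0.16 log2 units for each doubling (-0.07 to 0.06 elsewhere). Of the markers of the labelled cell type, KRT8 was at 167 to 562 CPM and KRT18 at 100 to 193 CPM. ERBB2, which encodes the Her2 that the label names, was below both, at 26.7 to 66.5 CPM. Other luminal markers were lower, with GATA3 at 2.94 to 10.2 CPM and FOXA1 at 0.588 to 1.91 CPM. KRT19 had 0 to 46 counts and CDH1 4 to 43 counts per library. Whether these levels, that of ERBB2 among them, are those of the labelled Her2+ line was not tested. ESR1 had 1 to 17 counts, PGR 0 to 5 counts and EPCAM 9 to 149 counts per library, so transcripts of the hormone receptors that the label names were at or near 0. The hosts are mice, and how mouse reads were handled is not given in the sources used here. Bulk RNA cannot tell fewer cells of a type from less RNA per cell.

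All 8 genes passed the count filter, and all 8 had a lower fitted level under evexomostat. The median log2 fold change of the 8 was -1.57, beside -0.04 over all 16653 genes tested, of which 55.4% were below 0. In edgeR's quasi-likelihood fit over all genes, PI3 and PTX3 were called lower at an adjusted p-value under 0.05, beside 0.432% of all genes called lower and 0.174% called higher. The same 2 genes were the ones whose CPM did not overlap between the groups, with every evexomostat tumour below every vehicle tumour, beside 1.64% of all genes. The other 6 genes overlapped and were not called. Since this contrast chose the set, nothing is read from these counts. Without evexomostat 002, 005 or 007, 0 of the 8 genes were called, beside 2, 1 and 3 genes called among all genes. The log2 fold change of PI3 was -2.5, -2.57 and -2.67 in those fits. Without evexomostat 003 or 004, with 46 and 28 genes called among all, PTX3 was not called while PI3 was.

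**Figure D1:**
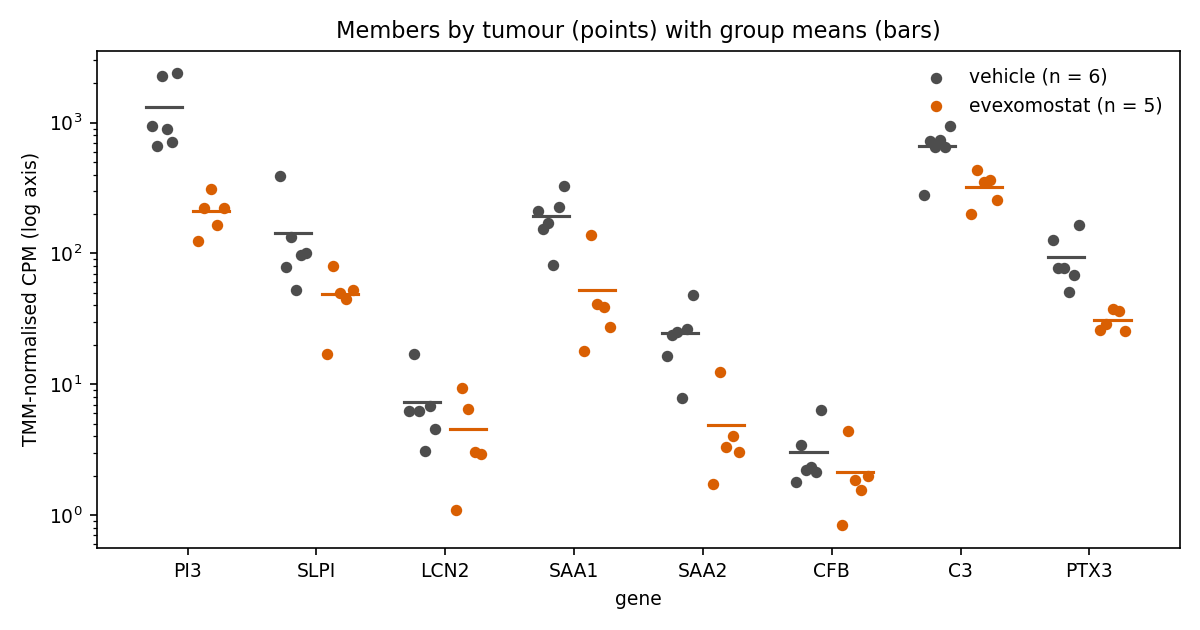
TMM-normalised CPM on a log axis for the 8 genes, 1 point per tumour, with short bars for the means of the 6 vehicle and 5 evexomostat tumours. The groups are apart for PI3 and PTX3, and overlap for SLPI, LCN2, SAA1, SAA2, CFB and C3.

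Among the 8 genes PI3 had the highest mean CPM in the vehicle tumours, while C3 was above it in all 5 evexomostat tumours. PI3 was at 947, 661, 2261, 888, 715 and 2375 CPM in vehicle tumours 001, 003, 004, 005, 006 and 007. It was at 124, 223, 311, 165 and 223 CPM in evexomostat tumours 002, 003, 004, 005 and 007. Vehicle tumours 004 and 007 stood above the other 4, and the highest evexomostat tumour, 004, was below the lowest vehicle tumour, 003. The means were 1308 ± 790 CPM (SD, n = 6) and 209 ± 70.6 CPM (SD, n = 5), a 6.25-fold difference, with a fitted log2 fold change of -2.64 (SE 0.40). PI3 transcripts made up 0.0652% to 0.227% of all counts in the vehicle tumours and 0.0125% to 0.0322% in the evexomostat tumours. By mean CPM over the 11 tumours PI3 ranked 113 of 28152 symbols.

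SLPI, the secretory leukocyte protease inhibitor, carries the same whey acidic protein fold as elafin. It was at 389 CPM in vehicle 001, and at 78.9, 134, 52.3, 96.9 and 101 CPM in vehicle tumours 003, 004, 005, 006 and 007. It was at 17.2, 79.6, 50.0, 45.0 and 52.8 CPM in evexomostat tumours 002, 003, 004, 005 and 007. One vehicle tumour was therefore far above the rest, and 3 of 5 evexomostat tumours were below the lowest vehicle tumour. The fitted log2 fold change was -1.54 (SE 0.50) and not called, and it was -0.92 (SE 0.34), also not called, without vehicle 001. SLPI has a transcript of 596 bases, and vehicle 001 is the library with the steepest length slope of the 11. PI3, with a transcript of 577 bases, was at 947 CPM in vehicle 001, inside the range of the other vehicle tumours. The part of the length trend in the SLPI value was not tested.

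Per kilobase of the longest coding transcript, PI3 was at 2267 ± 1370 CPM (SD, n = 6) in the vehicle tumours and 363 ± 122 CPM (SD, n = 5) in the evexomostat tumours. On that scale the vehicle order was PI3, SAA1 at 288 ± 123, SLPI at 238 ± 208, C3 at 126 ± 40.6, PTX3 at 48.5 ± 21.9, SAA2 at 24.1 ± 13.1, LCN2 at 8.62 ± 5.81 and CFB at 1.06 ± 0.60. In the evexomostat tumours SLPI, at 82.0 ± 37.3, and SAA1, at 78.0 ± 71.6, changed places, as did LCN2, at 5.41 ± 3.90, and SAA2, at 4.78 ± 4.14. Neighbours that differed by less than the larger of their SDs were SAA1 and SLPI, and SLPI and C3, under vehicle. Under evexomostat they were SLPI and SAA1, SAA1 and C3, LCN2 and SAA2, and SAA2 and CFB. PI3 was first in both groups, by more than its own SD.

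The acute phase genes SAA1 and SAA2 encode serum amyloid A, an apolipoprotein of high density lipoprotein that rises in blood during inflammation. Their transcripts are hard to tell apart. In GENCODE release 29 the coding sequences are both 369 bases and differ at 11 bases (97.0% identity), with an identical run of 186 bases, longer than a 150-base read. Bases 220 to 330, counted from the A of the start codon, hold 10 of the 11 differences and are shown 5′ to 3′ as the stretch where the coding sequences differ most. The other difference is at base 43, and non-coding sequence was not compared. Capitals mark the differing bases.
SAA1: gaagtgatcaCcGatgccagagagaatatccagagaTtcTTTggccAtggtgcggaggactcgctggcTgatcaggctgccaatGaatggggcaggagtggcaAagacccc
SAA2: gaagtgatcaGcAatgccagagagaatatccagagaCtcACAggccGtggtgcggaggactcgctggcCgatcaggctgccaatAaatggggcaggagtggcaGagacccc

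How reads that match both genes were counted is not given in the sources used here, so the level of each is uncertain. SAA2 took 7.28% to 13.5% of the summed counts of both in the vehicle tumours and 7.45% to 9.94% in the evexomostat tumours, ranges that overlap. The readthrough symbol SAA2-SAA4 had 0 to 2 counts per library.

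SAA1 was at 210, 153, 170, 81.3, 226 and 328 CPM in vehicle tumours 001, 003, 004, 005, 006 and 007. It was at 18, 137, 41.0, 39.2 and 27.6 CPM in evexomostat tumours 002, 003, 004, 005 and 007. Evexomostat 003 reached the vehicle range, above vehicle 005, and the other 4 evexomostat tumours were below all vehicle tumours. SAA2, at 16.5, 23.8, 24.97, 7.91, 26.5 and 47.9 CPM under vehicle and 1.74, 12.3, 3.30, 4.04 and 3.05 CPM under evexomostat in the same tumour order, repeated the pattern. The fitted log2 fold changes were -1.89 (SE 0.49) for SAA1 and -2.34 (SE 0.52) for SAA2, neither called. Without evexomostat 003 they were -2.63 (SE 0.37) and -3.02 (SE 0.45), and both were called lower, beside 0.185% of all genes in that fit. Hepatocyte markers, from the cell type best known for making serum amyloid A, summed to 1.45 to 2.79 CPM under vehicle and 1.90 to 4.46 CPM under evexomostat, with FGB at 0 counts in all tumours.

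PTX3, a long pentraxin that binds microbes and complement C1q, was at 127, 78.0, 77.3, 51.0, 68.1 and 164 CPM in vehicle tumours 001, 003, 004, 005, 006 and 007. In the evexomostat tumours, ordered from 002 to 007, it was at 26.2, 28.8, 37.9, 36.5 and 25.4 CPM. The treated tumours lay within a 1.49-fold range, against 3.21-fold among the vehicle tumours. The means were 94.1 ± 42.4 CPM (SD, n = 6) and 31.0 ± 5.86 CPM (SD, n = 5), at a fitted log2 fold change of -1.60 (SE 0.28). Evexomostat 003, high in SAA1 and SAA2, was not high in PTX3.

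LCN2, lipocalin 2, was at 6.21, 17.0, 6.24, 3.10, 6.77 and 4.56 CPM in vehicle tumours 001, 003, 004, 005, 006 and 007. It was at 1.09, 9.36, 6.49, 3.05 and 2.95 CPM in evexomostat tumours 002, 003, 004, 005 and 007. Vehicle 003 was above all other tumours, and the groups overlapped broadly. edgeR gave a log2 fold change of -0.68 (SE 0.51) that was not called. It was -0.23 without vehicle 003, -0.43 without evexomostat 002 and -1.11 without evexomostat 003. Neutrophils also make lipocalin 2, and the 8 neutrophil markers summed to 45.0 to 213 CPM under vehicle and 32.6 to 111 CPM under evexomostat. S100A9 was the most abundant, at 13.7 to 140 CPM, with S100A8 at 2.86 to 50.3 CPM and CSF3R at 2.3 to 4.56 CPM. Neutrophils of the host would be mouse cells, and how mouse reads were handled is not given, so the sums do not measure neutrophil content. Of these markers 0 of 5 tested were called by edgeR, and FCGR3B and CXCR2 did not exceed 17 counts. Their part in the LCN2 level was not tested.

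The complement genes differed in abundance. C3 was at 281, 728, 648, 736, 647 and 933 CPM in vehicle tumours 001, 003, 004, 005, 006 and 007. It was at 200, 431, 354, 363 and 257 CPM in evexomostat tumours 002, 003, 004, 005 and 007. Vehicle 001 fell inside the evexomostat range, and the other 5 vehicle tumours were above all evexomostat tumours. The means were 662 ± 214 CPM (SD, n = 6) and 321 ± 91.9 CPM (SD, n = 5), at a fitted log2 fold change of -1.04 (SE 0.28), not called. Without vehicle 001 it was -1.20 (SE 0.19), and C3 was called lower, as were PI3, SAA2 and PTX3, beside 3.24% of all genes in that fit. C3 has a transcript of 5263 bases, the longest of the 8 genes, and the part of the length trend of vehicle 001 in its value was not tested.

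CFB, complement factor B, was the least abundant, with 27 to 172 counts per library. It was at 1.79, 3.43, 2.21, 2.34, 2.12 and 6.32 CPM in vehicle tumours 001, 003, 004, 005, 006 and 007. It was at 0.84, 4.37, 1.85, 1.56 and 1.99 CPM in evexomostat tumours 002, 003, 004, 005 and 007. Only vehicle 007 was above the highest evexomostat tumour, and the log2 fold change of -0.52 (SE 0.42) was not called. It was -0.18 without vehicle 007, -0.32 without evexomostat 002 and -0.96 without evexomostat 003.

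Single tumours set much of the range across the genes. Vehicle 007 was the highest vehicle tumour for 6 of the 8 genes, PI3, SAA1, SAA2, CFB, C3 and PTX3. Vehicle 005 was the lowest for 5, SLPI, LCN2, SAA1, SAA2 and PTX3. Among the treated tumours, evexomostat 002 was the lowest for 7 of 8, all but PTX3, and evexomostat 003 the highest for 6, all but PI3 and PTX3. SAA1 and SAA2 are counted separately here, though their reads are not independent. The matching shares over all genes were not computed, so these counts are not read as a trait of the defence genes. Without vehicle 001 and evexomostat 003 together, an alternative added after their values were seen, PI3, SAA1, SAA2, C3 and PTX3 were called lower, beside 2.56% of all genes in that fit.

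**Figure D2:**
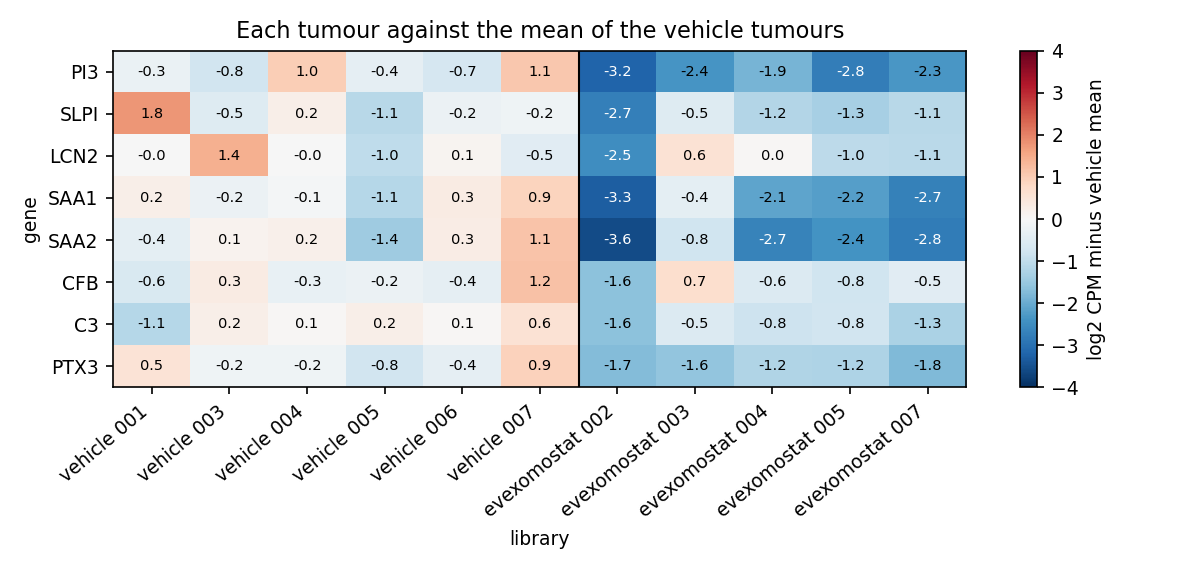
Log2 CPM of each gene in each tumour minus the mean of the 6 vehicle tumours, with the value printed in each cell and a line between the groups. Evexomostat 002 is the lowest column for 7 of the 8 genes, while evexomostat 003 lies within 0.8 of the vehicle mean for 6 genes and at -2.35 for PI3 and -1.59 for PTX3.

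**Figure D3:**
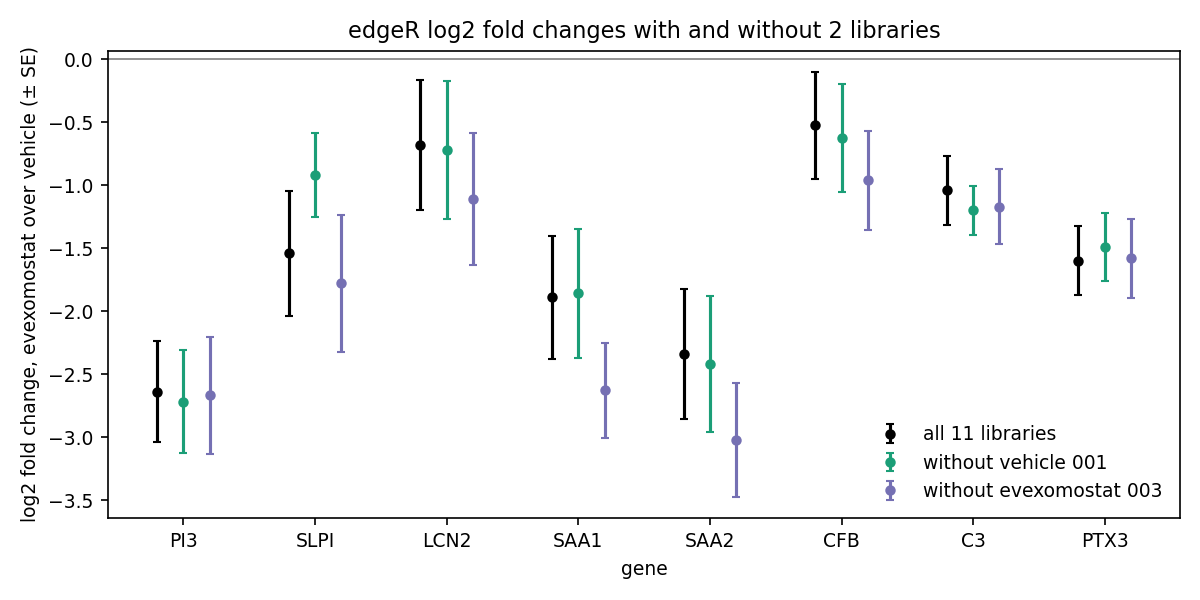
edgeR log2 fold change of evexomostat over vehicle for each gene, with bars of 1 SE, from all 11 libraries and with vehicle 001 or evexomostat 003 left out. All values are below 0. SLPI moves from -1.54 to -0.92 without vehicle 001, and SAA1 from -1.89 to -2.63 without evexomostat 003.

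The vehicle tumours alone allowed a look at whether PI3 and the other genes vary together without the drug, a measure that the choice of the set did not use. Over the 6 vehicle tumours, Pearson's r of log2 CPM with PI3 ranged from -0.40 for LCN2 to 0.51 for PTX3. The exact permutation p for PTX3 was 0.296 (adjusted 0.626 over 7 comparisons), and its Spearman rho was 0.49 (exact permutation p = 0.356, adjusted 0.622). SAA2 had r = 0.49 (exact permutation p = 0.36) and rho = 0.37 (exact permutation p = 0.497), and SLPI had r = 0.14 (exact permutation p = 0.831) and rho = 0.60 (exact permutation p = 0.242). For LCN2, SAA1, CFB and C3 the exact permutation p of r was 0.444, 0.447, 0.421 and 0.708, and rho was -0.60, 0.49, 0.14 and 0.26. No adjusted value was below 0.622, two-sided. Without vehicle 004 and 007, the tumours farthest from the PI3 median, r was 0.27 for PTX3, -0.71 for SAA2 and 0.48 for SLPI, and it was negative for LCN2, SAA1, CFB and C3. The smallest exact permutation p of Pearson's r that 6 tumours allow is 0.00139, and no relation between PI3 and the other genes passed the test.

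Over all 11 tumours, the genes with a pattern most like PI3 by Pearson's r of log2 CPM were TMEM45A (0.95), HSD11B1 (0.95), FBXO36 (0.95), STXBP6 (0.95) and PRRG4 (0.95). TMEM45A encodes a transmembrane protein and was at 18.7 to 46.6 CPM under evexomostat and 83.1 to 310 CPM under vehicle. HSD11B1, the enzyme that regenerates active cortisol, was at 0.93 to 4.01 CPM under evexomostat and 10.1 to 71.1 CPM under vehicle. Groups did not overlap in any of these 5 genes, so the r values hold the treatment difference that chose PI3. Among the other defence genes PTX3 ranked 51 of 16652 genes by this r (0.88), SAA2 119 (0.84) and SAA1 183 (0.82). C3 ranked 404 (0.76), SLPI 851 (0.68), CFB 1819 (0.54) and LCN2 3042 (0.40).

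The RefSeq promoter table (GRCh38.p14) matched 3 of the 8 genes, LCN2, CFB and PTX3. The 250 bases before each start were searched on both strands for the kappaB consensus bound by NF-kB and for TTNNGCAA, the letters of a C/EBP site. LCN2 and PTX3 each held both, while 5.05% of 27305 promoters held kappaB and 9.13% the C/EBP letters. Among the 12326 promoters of tested genes the shares were 6.17% and 6.3%. Both sequences are shown because 1 of these genes was called and the other was not, with the kappaB and C/EBP matches in capitals. In PTX3 the kappaB letters match on both strands, at overlapping positions. LCN2 lies at chr9:128149203-128149452 on the plus strand and PTX3 at chr3:157436600-157436849 on the plus strand.
LCN2: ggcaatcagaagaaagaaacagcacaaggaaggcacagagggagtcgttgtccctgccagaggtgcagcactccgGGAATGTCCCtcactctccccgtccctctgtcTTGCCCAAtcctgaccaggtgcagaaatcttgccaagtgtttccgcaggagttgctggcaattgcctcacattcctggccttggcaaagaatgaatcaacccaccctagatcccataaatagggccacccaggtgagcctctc
PTX3: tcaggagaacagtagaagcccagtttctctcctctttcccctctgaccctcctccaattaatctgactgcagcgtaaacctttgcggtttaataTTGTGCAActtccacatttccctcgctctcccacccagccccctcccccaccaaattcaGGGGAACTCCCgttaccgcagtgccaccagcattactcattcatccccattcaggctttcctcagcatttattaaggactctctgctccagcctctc

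CFB held neither in this window. The letters of STAT, AP-1 and TATA box sites were searched too. CFB held TTCNNNGAA, the letters of a STAT site, as did 6.78% of promoters, and TATAAA, the letters of a TATA box, as did 11.1%. LCN2 held TGANTCA, the letters of an AP-1 site, as did 6.6% of promoters. These are matches of letters, not measured binding.

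The rest of the pathway was described from 11 lists, which were also chosen with earlier results of these data known. They hold 159 further genes, of which 90 were tested. Of these 90, edgeR called 5 lower, NFKBIZ, RELB, NPTX2, C1R and CD46, and 0 higher. Over all genes tested, 0.432% were called lower and 0.174% higher. At an unadjusted p-value under 0.05 there were 31 lower and 0 higher of the 90, beside 8.55% lower and 4.82% higher of all genes. DESeq2 called 19 lower and 0 higher, beside 2.71% lower and 1.21% higher of all genes. The median log2 fold change was -0.39, with 67 of 90 genes below 0, beside -0.04 and 55.4% for all genes. Since the lists were chosen with that knowledge, these counts are descriptions and not tests of the pathway.

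Of the inducers and transcription factors, the list with the most tested genes, 21 of 24 had a lower fitted level, and the median log2 fold change was -0.55. NFKBIZ, the atypical NF-kB partner needed for LCN2 induction, was at 48.1 to 109 CPM under vehicle and 31.8 to 46.3 CPM under evexomostat. Its groups did not overlap, and it fell by 0.95 on the log2 scale (edgeR, SE 0.19 and adjusted p = 0.0466). RELB, an NF-kB subunit, was at 100 to 120 CPM against 64.1 to 82.5 CPM, also without overlap. It fell by 0.65 on the log2 scale (edgeR, SE 0.11 and adjusted p = 0.0246). RELB was called in all fits that left out 1 vehicle tumour and not called without evexomostat 002, 003, 005 or 007 (adjusted p = 0.0523 to 0.11). NFKBIZ was called without vehicle 001 and not without any other single tumour (adjusted p = 0.0559 to 0.162). The other 22 tested genes of the list were not called, among them IL1A, IL6, STAT3 and CEBPB.

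Further complement lists were measured beside C3 and CFB, which are not counted in them. Among components, 1 of 12 tested genes was called and 7 of 12 had a higher fitted level, with a median log2 fold change of 0.05. The called gene was C1R, a protease that starts the classical pathway, at 1217 to 1933 CPM under vehicle and 606 to 1098 CPM under evexomostat. It fell by 0.93 on the log2 scale (edgeR, SE 0.19 and adjusted p = 0.0477). Among regulators, 8 of 9 had a lower fitted level, with a median of -0.45, and CD46, a membrane cofactor for the inactivation of C3b, was called. CD46 was at 274 to 381 CPM against 194 to 215 CPM, a log2 fold change of -0.61 (edgeR, SE 0.12 and adjusted p = 0.0462). C1R and CD46 were called without vehicle 001 and not without any other single tumour (adjusted p = 0.0515 to 0.175 for C1R and 0.0603 to 0.148 for CD46).

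NPTX2, a neuronal pentraxin related to PTX3, was the 1 called gene of 4 tested pentraxins and PTX3 partners. It was at 11.8, 9.99, 24.1, 13.8, 9.58 and 19.8 CPM in the vehicle tumours and 4.47, 4.37, 4.96, 6.26 and 3.14 CPM in the evexomostat tumours, in replicate order. Every treated tumour was below every vehicle tumour, and the log2 fold change was -1.68 (edgeR, SE 0.28 and adjusted p = 0.0233). It was not called when any 1 evexomostat tumour was left out (adjusted p = 0.0572 to 0.0807).

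**Figure D4:**
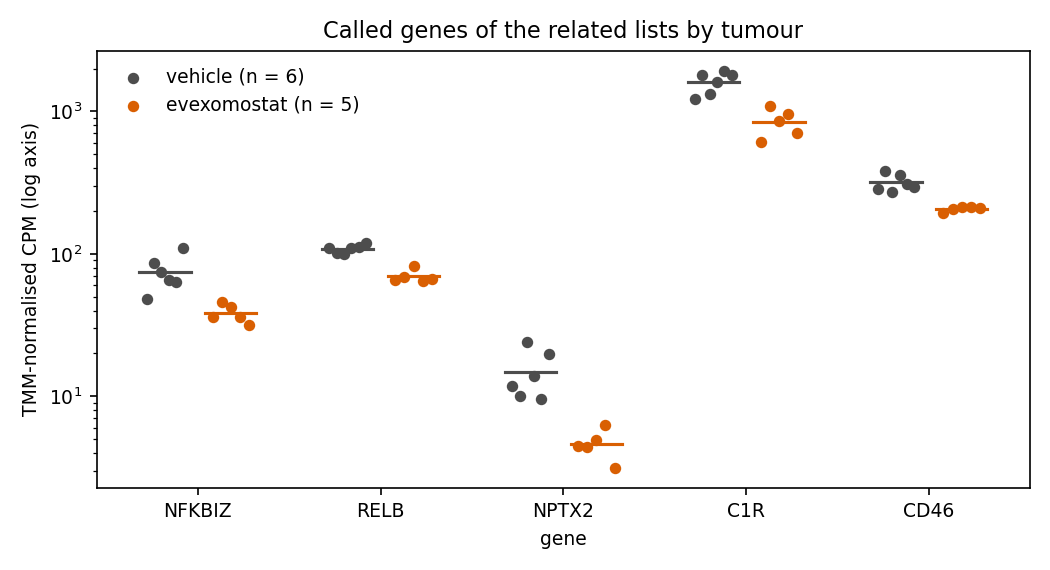
TMM-normalised CPM on a log axis for the 5 called genes of the related lists, 1 point per tumour, with bars for the group means. In NFKBIZ, RELB, NPTX2, C1R and CD46 the 5 evexomostat tumours lie below the 6 vehicle tumours.

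No gene was called on the other lists, whose most abundant tested genes are given here. Of 13 tested antiproteases, 10 had a lower fitted level, and SERPINB1, an inhibitor of neutrophil proteases, was at 39.4 ± 5.84 CPM (SD, n = 6) and 39.0 ± 1.37 CPM (SD, n = 5). Its log2 fold change of -0.02 (SE 0.12) turned to 0.02 with upper quartile scaling and 0.05 without vehicle 001. Of 4 tested proteases that elafin and related inhibitors act on, PRTN3 was at 20.02 ± 3.93 and 19.4 ± 2.49 CPM, and its log2 fold change of -0.04 (SE 0.16) was 0.04 without vehicle 001. Of 4 tested genes of crosslinking and the cornified envelope, TGM2, a transglutaminase, was at 167 ± 103 and 126 ± 46.7 CPM. Of 4 tested antimicrobial proteins, S100A9, a calprotectin subunit, was at 71.2 ± 43.2 and 47.4 ± 21.0 CPM.

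Lipocalin partners and iron genes had 6 of 8 tested genes with a lower fitted level. FTL, the ferritin light chain, was at 4531 ± 1227 CPM (SD, n = 6) and 2933 ± 503 CPM (SD, n = 5), a log2 fold change of -0.63 (edgeR, SE 0.21 and adjusted p = 0.204). Of 7 tested acute phase genes other than the 8, 5 had a lower fitted level, and SERPINA3, the antichymotrypsin, was at 44.7 ± 16.4 and 22.7 ± 4.53 CPM (edgeR estimate -0.98 on the log2 scale, SE 0.27 and adjusted p = 0.124). Of 4 tested receptors, SCARB1, which binds high density lipoprotein and serum amyloid A, was at 151 ± 64.5 and 82.2 ± 10.5 CPM (edgeR estimate -0.87 on the log2 scale, SE 0.26 and adjusted p = 0.153).

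**Figure D5:**
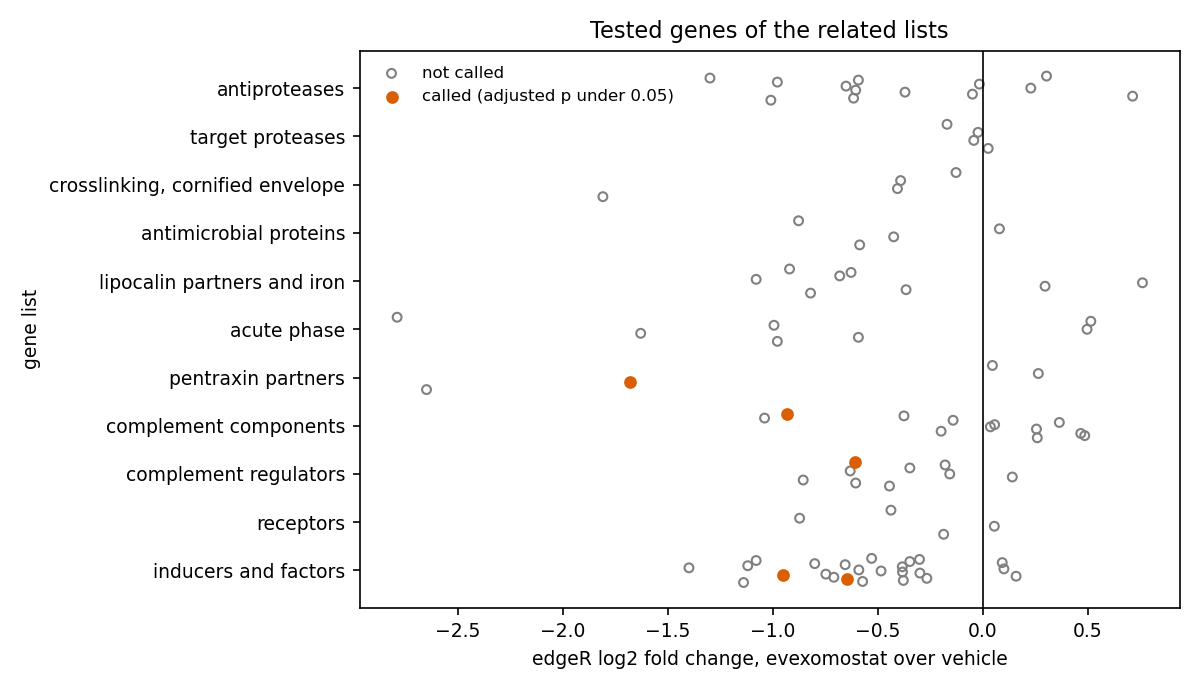
edgeR log2 fold changes of the 90 tested related genes, evexomostat over vehicle, 1 row per list and 1 point per gene. Filled points are the 5 called genes, all below 0, and open points the genes not called. A gene on more than 1 list appears in each.

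Markers of other cell types were measured beside these lists. Host cells would be mouse cells, and how mouse reads were handled is not given in the sources used here. These sums, and the hepatocyte sums above, are therefore not measures of host cell content. Macrophage markers summed to 81.8 to 121 CPM under vehicle and 89.4 to 102 CPM under evexomostat, with C1QB at 0 counts. Squamous markers, of the epithelium in which elafin is well known, summed to 27.6 to 288 CPM and 14 to 206 CPM, with KRT5 the most abundant and SPRR1B at 0 counts. Fibroblast markers summed to 398 to 2060 CPM and 496 to 1070 CPM. Skeletal muscle markers had sums of 1.2 to 8.73 CPM under vehicle and 1.27 to 215 CPM under evexomostat, and a median log2 fold change of 3.48 over 3 tested genes. The highest sum was in evexomostat 005, with ACTA1 at 140.0 and MYH2 at 74.2 CPM, a tumour that was neither highest nor lowest of its group for any of the 8 defence genes. The ranges of each list overlapped between the groups, edgeR called 0 of the tested genes in any of the 9 marker lists, and their part in the differences was not tested.

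In the authors' deposited table, 4 of the 8 genes have an adjusted p-value under 0.05, beside 0.536% of its genes lower at that threshold. The authors' deposited table gives log2 fold changes of -2.55 for PI3, -1.76 for SAA1, -2.22 for SAA2 and -1.49 for PTX3. For SLPI, C3, LCN2 and CFB the authors' deposited table gives -1.37, -0.95, -0.57 and -0.41, none of them under that threshold.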

How the data were processed

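The deposited count table holds whole-number reads per gene symbol, and the deposited RPM table the same counts scaled by each column total (checked, largest difference 2e-13). The authors' comparison table holds log2 fold changes, p-values and group means in RPM. Per the submitters' processing notes, bcl2fastq 2.17, STAR 2.7.5c, featureCounts (Subread) and edgeR were used and the builds GRCh37 and hg19 are named. The use of strand, multi-matching reads and mouse reads are not given in the sources used here.

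Genes were kept with filterByExpr (minimum count 10, minimum total 15), which left 16653 of 28152. Counts were scaled by TMM and tested with edgeR 4.0.16 (quasi-likelihood, no covariates, R 4.3.3), with Benjamini-Hochberg adjustment over all genes and a threshold of 0.05, and SEs from the F statistic. Log2 CPM used a prior count of 2. Length is that of the longest coding transcript in GENCODE 29, known for 94.55% of tested genes. Correlations used all 720 pairings.

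The 8 genes and all lists were chosen with earlier results of these data known. Related genes were named if called (at most 4 per list), else the most abundant tested gene, and the 5 genes most like PI3 by r. Alternatives used DESeq2 1.42.0 and limma 3.58.1, and the fits were tested on simulated data. No 2 libraries agreed within sampling noise (the smallest chi-square over its degrees of freedom was 16.7).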

Additional observations from a re-analysis of the deposited data

Results flagged for a closer look

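The highest or lowest tumour of a group was compared with the rest in 88 comparisons, over 44 groups of tumours. By Dixon's criterion 7 values stood far from the others of their group, which chance meets in about 1 in 20 groups of normally distributed values. All 7 were the highest of their group, on CPM without a log. The groups share tumours and are not independent, so the rate is only a rough guide. TNFAIP6 was taken up after its values were seen, so its flag cannot be set against that rate. SLPI was at 389.3 CPM in vehicle 001, against 134.2 in the next tumour. LCN2 was at 16.98 CPM in vehicle 003, against 6.77 in the next. CFB was at 6.32 CPM in vehicle 007, against 3.43, and TNFAIP6 at 372.8 CPM in the same tumour, against 125.9. SAA1 and SAA2 were at 137.4 and 12.31 CPM in evexomostat 003, against 40.98 and 4.04 in the next evexomostat tumour, and their reads are not independent. RELB was at 82.46 CPM in evexomostat 004, against 69.02, and remained below all vehicle tumours.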

How the results depend on the processing

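All 8 genes had a lower fitted level under evexomostat in each of the 23 alternatives. PI3 was called in 20, PTX3 in 17, SAA2 in 7, C3 in 5, SAA1 in 4, SLPI in 1, and LCN2 and CFB in 0. Of all genes, 101 were called (72 lower, 29 higher). DESeq2 called 649 (449 lower, 200 higher), with 6 of the 8 genes and 19 related genes lower. limma-voom with quality weights called 1059 (675 lower, 384 higher), with 5 and 21. Upper quartile scaling called 42 lower, with 2 related genes. With a pseudocount of 1 on RPM, limma-trend called 31 lower with 2 related genes, and with 0.1 it called 30 with 1. Higher calls made up 28.7% of calls, and 40% with upper quartile scaling, 58.1% and 55.9% on the RPM scales, where the median of all genes moved from -0.039 to 0.075 and 0.098. Without vehicle 001 and evexomostat 003 together, added after seeing the data, 652 were called (428 lower, 224 higher), with 5 of the 8 genes and 18 related genes. Leaving out 1 library at a time gave 1 to 865 calls, 0 to 537 lower and 1 to 328 higher, with 0 to 4 of the 8 genes and 0 to 20 related genes. The highest of these values came without vehicle 001.

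Replicate numbers 003, 004, 005 and 007 occur in both groups, and correlations of their deviations were -0.272, 0.0664, 0.0489 and -0.0998, and these were not treated as pairs. With the replicate block on those 8 libraries 107 genes were called, with 1 of the 8 genes and 1 related gene lower. The same 8 libraries with no block gave 733 (508 lower, 225 higher), with 3 of the 8 genes and 18 related genes.

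Fitted values near 0 changed sign. SERPINB1 was at 0.0244 with upper quartile scaling, 0.031 with quality weights, 0.0893 and 0.0916 on the RPM scales, 0.123 with the replicate block, 0.117 in those libraries with no block, and 0.0381 without vehicle 001 and evexomostat 003 (-0.0716 to 0.0495 leaving out 1 library). PRTN3 was at 0.029 with quality weights, 0.0635 and 0.067 on the RPM scales, 0.0656 with the block and 0.0586 with none (-0.132 to 0.0352 leaving out 1 library). S100A9 was at 0.0868 with the block. Within the vehicle tumours, leaving out 1 moved r with PI3 from -0.684 to 0.00558 for LCN2, -0.343 to 0.741 for CFB and -0.0371 to 0.418 for C3. The cause of these changes was not tested. Depth limits CFB, at 27 to 172 counts, more than the other 7 genes.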

Other observations

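Genes of the related lists outside the naming rule, chosen after their values were seen, had large differences and wide spreads. CP, ceruloplasmin, a copper-binding ferroxidase of the acute phase, was at 2.91, 21.3, 14.2, 4.44, 6.65 and 38.2 CPM in the vehicle tumours and 2.08, 2.23, 1.92, 2.81 and 1.56 CPM in the evexomostat tumours, in replicate order. Its groups did not overlap, by a narrow gap between vehicle 001 and evexomostat 005, and the log2 fold change was -2.79 (edgeR, SE 0.59 and adjusted p = 0.0584). TNFAIP6, which binds hyaluronan and PTX3, was at 71.1, 49.1, 126, 39.7, 45.7 and 373 CPM in the vehicle tumours and 12.4, 24.1, 26.9, 18.7 and 11.3 CPM in the evexomostat tumours. Its groups did not overlap either, and the log2 fold change was -2.65 (edgeR, SE 0.59 and adjusted p = 0.0665). Vehicle 007 was the highest tumour for both. Both were called without vehicle 001 (adjusted p = 0.0117 and 0.0294) and by DESeq2 (adjusted p = 3.35e-05 and 8.02e-05). CP was also called by edgeR without vehicle 005 (adjusted p = 0.0475). Of the 23 alternatives, CP was called in 7 and TNFAIP6 in 5. Without vehicle 007 the log2 fold changes were -2.23 for CP (adjusted p = 0.0795) and -1.83 for TNFAIP6 (adjusted p = 0.0501). With limma-voom the adjusted p was 0.147 for CP and 0.091 for TNFAIP6, so neither was called.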
